A study of Triticum aestivum with 42 samples.

Results

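As plants aged and temperature, day-length and light declined, a set of wheat transcripts became much less abundant in the leaf. In the crown, the organ at the base of the plant that holds the shoot apex, their level changed far less or rose. The set is made of the 120 probe-sets, of 61179 on the Affymetrix wheat array once control probe-sets were left out, for which the higher of the 9-week leaf values of the winter variety Harnesk was at most 1/3 of the lower 3-week leaf value, while the 9-week mean in the crown was at least 0.67 of the 3-week mean. A further 64 probe-sets met the leaf limit but had a crown ratio under 0.67, so 184 met the leaf limit in all. The members were chosen by the measured values of the 3-week and 9-week Harnesk arrays, so their values in that comparison are given as a description.

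Harnesk plants were grown under declining temperature, day-length and light. They were sampled at 3 weeks (16 °C in the day and 14 °C at night, a 14 h photoperiod and a light level of 280 units of photosynthetically active radiation), 5 weeks (14 °C and 10 °C, 12 h and 185 units) and 9 weeks (8 °C and 4 °C, 9 h and 95 units), with 2 arrays for each tissue and week, each from the pooled RNA of 4 plants. The control plants were of another winter variety, Solstice, and had the same decline in day-length and light while the day and night temperatures were held at 16 °C and 14 °C, with 1 array for each tissue and week. Variety and cooling therefore cannot be told apart between Harnesk and the controls, and the lone control array of each week has no replicate check. Weeks are counted from germination, so in both groups plant age cannot be told apart from the change in growth conditions. What was harvested as crown was more than the shoot tip, since stem tissue and young leaf bases came with it. The replicates are labelled as biological; p-values measure only the spread between these arrays.

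A mature leaf exports carbon that it fixes by day, in part through starch that is stored and then broken down, whereas the crown is a zone of dividing and expanding cells, whose microtubules are built from alpha- and beta-tubulin. In winter cereals the crown is the organ that has to outlive the winter, and cooling slows leaf growth. A bulk sample averages over all its cells, so fewer cells of a type and less RNA per cell cannot be told apart in the values that follow.

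Each value is a normalised ratio: the signal of a probe-set on an array divided by the median signal of that probe-set over arrays, so that 1 is a typical level of that probe-set. Levels of different probe-sets cannot be ranked, and whether a low ratio lies above background is not shown by the ratio. Some levels differed widely between the groups: in crown at 3 weeks Ta.21350.2.S1_at had 2.39 and 2.31 on the Harnesk arrays and 20.0 on the control array. Whether variety or scaling gave such differences was not tested. Harnesk and control values were not shown to be on one scale for every probe-set, so control levels are read only against other control levels. Of the tissue markers chosen for the array, 19 of 38 leaf probe-sets, most of them for photosynthetic proteins, passed the test as higher in leaf than in crown of Harnesk at 5 weeks and 1 as lower, and 17 of 18 crown probe-sets, all for the histones H2A and H2B, were lower in leaf. Most of the 38 leaf probe-sets, and nearly all of those that did not pass as higher, were for 1 gene, rbcL. None of the leaf or crown markers was a member of the set. From 3 to 9 weeks the leaf markers shifted by a median of -0.37 on the log2 scale in leaf and 0.15 in crown, and the crown markers by 0.02 in leaf and -0.38 in crown. The part of these shifts in the results was not tested.

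The Harnesk replicate arrays had rank correlations of 0.815 to 0.847 over all probe-sets. Among the controls, the 9-week leaf array stood apart: its rank correlations with the remaining control leaf arrays averaged 0.101, against 0.436 for the 3-week and 0.445 for the 5-week array. These correlations are between weeks and not between replicates. A change with age and growth conditions therefore cannot be told apart from a fault of that array. The counts of members on the control leaf arrays are therefore given for 5 weeks as well as for 9 weeks.

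The median level of the 120 probe-sets on the Harnesk leaf arrays was 6.21 and 6.10 at 3 weeks, 2.80 and 2.85 at 5 weeks, and 1.30 and 1.22 at 9 weeks. On the crown arrays the median level was 0.793 and 0.818 at 3 weeks, 0.797 and 0.743 at 5 weeks, and 0.792 and 0.772 at 9 weeks. The leaf medians stepped down at each sampling, and the crown medians lay in a narrow band that the leaf did not reach by 9 weeks. The ratio of the 9-week to the 3-week mean in leaf ran from 0.0329 to 0.323 with a median of 0.243, beside 0.927 over all probe-sets. In crown it ran from 0.679 to 2.65 with a median of 0.974, beside 1.01 over all probe-sets.

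**Figure D1:**
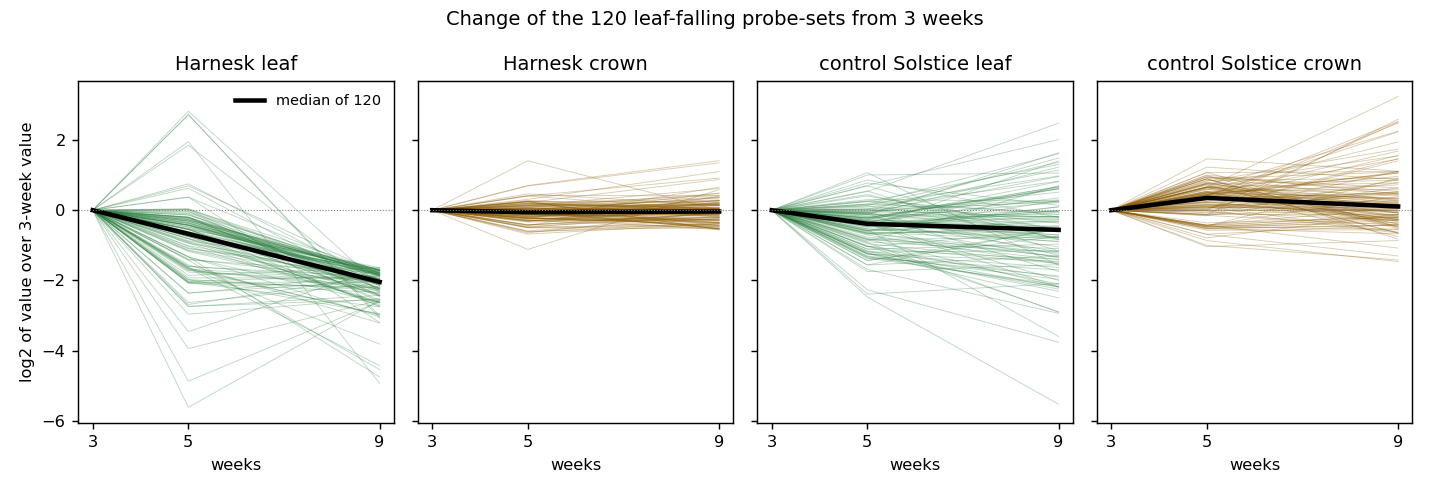
Log2 of the value at 3, 5 and 9 weeks over the 3-week value (vertical axis) for each of the 120 probe-sets, 1 thin line each, in Harnesk leaf and crown (means of 2 arrays) and in control Solstice leaf and crown (1 array each), with the median as a thick line. The Harnesk leaf lines end between -4.92 and -1.63 at 9 weeks, as the rule requires, while the control leaf lines end on both sides of 0.

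With limma across the 12 Harnesk arrays, all 120 passed as lower in leaf at 9 weeks than at 3 weeks at an adjusted p below 0.05 and at least 2-fold, beside 1.94% of all probe-sets (6.11% were higher), a count that the choice of members fixed. In crown, where 1.37% of all probe-sets passed as lower and 0.892% as higher, no member passed as lower and 3 passed as higher. Without the 2-fold limit, 4 members were lower in crown at an adjusted p below 0.05, beside 7.43% of all probe-sets, and 8 were higher, beside 3.57%. The crown limit of 0.67 left almost no room for a 2-fold lower call and also cut the lower count at any fold. These crown counts are therefore descriptions as well. The crown was therefore not flat for every member: 75 had a crown ratio between 0.8 and 1.2, 24 lay under 0.8 and 21 over 1.2.

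The members nearest to the leaf limit were Ta.12415.3.S1_at and TaAffx.57618.1.S1_at, whose higher 9-week value was 0.333 of the lower 3-week value in both cases. The nearest outside were TaAffx.124247.1.S1_at at 0.334 and TaAffx.76521.1.S1_at at 0.334. At the crown limit, TaAffx.21320.1.A1_at at 0.679 and Ta.667.2.S1_at at 0.682 were just inside, and Ta.11160.1.S1_s_at at 0.669 and Ta.4936.2.S1_a_at at 0.653 were just outside. The limits cut through a continuous range.

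The 120 probe-sets carry 98 different transcript cluster numbers, the leading part of the probe-set name. Of these clusters, 15 held more than 1 member and together accounted for 37 members, so that many members report the same or closely related transcripts. Probe-sets whose names end in x_at, which can hybridise to more than 1 related sequence, made up 19.2% of members and 11.1% of all probe-sets. Only 6 members have a gene symbol in the platform annotation and the other 114 are known here by probe-set name alone.

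The gene with a recognisable carbohydrate role was LOC543318 (Ta.3.1.S1_at), which carries the synonyms amy1 and BMY1, the second being a symbol used for beta-amylase, an enzyme that releases maltose from starch. In Harnesk leaf its values were 23.2 and 18.7 at 3 weeks, 15.2 and 16.1 at 5 weeks, and 6.04 and 4.72 at 9 weeks, and in crown all 6 values lay between 0.596 and 0.894. Every leaf array was thus above every crown array, and most of the leaf decrease came after 5 weeks. On the control arrays the leaf values were 2.78, 1.89 and 0.23 at 3, 5 and 9 weeks, and the crown values lay between 0.195 and 0.25. The control leaf value at 9 weeks was 0.0828 of that at 3 weeks, a lower ratio than the 0.256 of Harnesk leaf, but it rests on the array that stood apart, and at 5 weeks the control ratio was 0.682.

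LOC543329 (Ta.137.1.S1_at) had 7.83 and 8.49 in Harnesk leaf at 3 weeks, 5.35 and 5.84 at 5 weeks, and 1.77 and 1.22 at 9 weeks, against 0.785 to 0.947 over the crown arrays. The control leaf values were 2.90, 1.50 and 1.04 and the control crown values 0.99, 0.726 and 0.907. In the RefSeq wheat gene table LOC543329 and LOC543318 lie on the same chromosome with 1 gene between them. Both probe-sets were leaf-high, and both were lower at 9 weeks than at 3 weeks on the control leaf arrays as well.

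The cytoskeletal member was LOC543258 (Ta.1544.1.S1_at), with the synonyms TUB and tubb2, a beta-tubulin. It had 0.304 and 0.300 in Harnesk leaf at 3 weeks, 0.165 and 0.178 at 5 weeks, and 0.062 and 0.07 at 9 weeks, while all crown arrays lay between 1.62 and 1.82. Unlike the starch gene it was therefore a crown-high transcript whose small leaf signal shrank. The control leaf values were 0.288, 0.313 and 0.201, and the control crown values 4.04, 4.33 and 5.48. At 5 weeks the control leaf array was not below the 3-week array.

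A list of tubulin and other cell wall and growth genes matched 11 probe-sets, of which this beta-tubulin was the only member. Of the other 10, 6 passed as lower in leaf at 9 weeks at an adjusted p below 0.05 from limma at any fold, 2 as higher and 2 did not pass. The nearest to the set was tubb1, LOC543257 (Ta.212.1.S1_at), with a log2 change of -1.68 in leaf (adjusted p = 1.32e-06) and -0.20 in crown (adjusted p = 0.4), and 4 probe-sets of Tubb5, LOC543261, had leaf changes of -0.81 to -1.30. The probe-set of tubb3, LOC543473 (Ta.2837.1.S1_s_at), went the other way, with 0.90 in leaf (adjusted p = 8.09e-05). The beta-tubulin genes on the array thus did not share 1 direction in leaf. In crown 2 of the 10 passed as lower, XTH, a gene for a wall-loosening xyloglucan enzyme, at -1.02 and the alpha-tubulin probe-set Ta.723.1.S1_at at -1.50. The member Ta.812.4.S1_at shares its cluster number with a probe-set annotated as the alpha-tubulin TUBA but has no symbol of its own. The annotated probe-set, Ta.812.1.S1_x_at, was higher in leaf at 9 weeks, by 0.53 on the log2 scale (adjusted p = 0.00386 by limma), opposite to the member. The member had 0.427 and 0.386 in leaf at 3 weeks, 0.22 and 0.271 at 5 weeks, and 0.128 and 0.119 at 9 weeks, against 1.55 to 1.93 in crown.

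The starch and sucrose list matched only the starch gene described above, which is a member. The lists for nitrogen assimilation and for phase transition and clock, which are apart from the study's own lists named below, matched no probe-set. The remaining gene lists gave no member. None of the 36 photosynthesis probe-sets was a member, and their median leaf change was -0.35 on the log2 scale beside -0.11 over all probe-sets. By limma at any fold, 9 were lower, 0 higher and 27 did not pass. Most of the 36 were for 1 gene, rbcL, so these figures mainly describe that gene. The probe-sets of PRK, FBP, OEE1, OEE2 and petC changed by -1.03 to -0.02 in leaf. Over all probe-sets, 16.9% were lower and 17.0% higher in leaf at any fold. No member was found among the 5 cold-acclimation, 5 defence, 4 fructan, 4 gibberellin, 4 storage protein, 9 chromatin and cell division or 9 oxidative stress probe-sets, nor among the few of photorespiration, benzoxazinoid, lipid and heat shock genes. At any fold, 2 of the 4 gibberellin probe-sets, both for GA 20-oxidase, which makes gibberellin precursors, were lower in leaf, and so were both probe-sets of the catalase CAT1, an enzyme that removes the peroxide formed in photorespiration, at -1.05 and -0.80. Of the fructan probe-sets, 2 of the 3 for the fructan exohydrolase 6-FEH were higher in leaf, at 1.31 and 0.89, and that of 1-FEH was lower, at -1.05. Of the defence probe-sets, that of PR5 at 3.46 and Ta.3760.2.A1_a_at of Glc1 at 0.61 were higher and none was lower. The other Glc1 probe-set, Ta.3760.1.S2_at, did not pass, at 0.29 (adjusted p = 0.342 by limma). The oxidative stress list had 4 lower and 2 higher in leaf, and the chromatin and cell division list 1 in each direction. The storage protein list had 3 lower and 0 higher, but it was matched by name. Its largest decrease, -3.95 for Ta.4601.2.S1_at (synonym GLU1A), was that of the lone benzoxazinoid probe-set, counted under both lists. The remaining storage protein probe-sets, all of LOC543213, changed by -0.86 to -0.30. None of the 71 probe-sets matched by name to the study's phase-transition and MADS-box lists was a member. These counts cover only the 1273 probe-sets that have a symbol, or those that the study listed.

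LOC100037609 (Ta.1848.2.S1_s_at) kept its leaf level through 5 weeks and then lost most of it. It had 1.76 and 1.74 in Harnesk leaf at 3 weeks, 2.21 and 2.33 at 5 weeks, and 0.199 and 0.183 at 9 weeks, against 0.677 to 0.97 in crown. Both 5-week leaf arrays lay above both 3-week arrays. The gene's other probe-sets had leaf ratios of 0.105 (Ta.1848.1.S1_s_at) and 0.118 (Ta.1848.2.S1_x_at) but crown ratios of 0.599 and 0.46, under the crown limit. For this gene the crown limit divided probe-sets that had nearly the same leaf ratio, and the member's own crown ratio was 0.751. The control leaf values were 1.54, 1.11 and 0.824 at 3, 5 and 9 weeks.

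LOC543150 (Ta.21350.2.S1_at) was the member with the lowest leaf level relative to crown at 5 weeks. Its leaf values were 0.17 and 0.176 at 3 weeks, 0.051 and 0.037 at 5 weeks, and 0.021 and 0.024 at 9 weeks, and its crown values lay between 2.13 and 2.42. The gene's other probe-set, Ta.30711.1.S1_x_at, was also crown-high, at 2.36 to 3.12, yet its leaf values were 0.06 and 0.068 at 3 weeks and 0.145 and 0.15 at 9 weeks. The 2 probe-sets thus moved in opposite directions in leaf, both from values far under 1, and the leaf decrease of this gene is uncertain. The control leaf values of Ta.21350.2.S1_at were 0.74, 0.412 and 0.346, and those of the other probe-set 0.448, 0.395 and 0.97.

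LOC542837 (Ta.238.1.S1_at) was nearly level between the tissues at first. It had 1.60 and 1.55 in leaf at 3 weeks, 1.28 and 0.977 at 5 weeks, and 0.495 and 0.377 at 9 weeks, against 1.35 and 1.37, 1.11 and 1.11, and 0.906 and 0.99 in crown. Its crown ratio of 0.699 lay close to the limit. The control leaf values were 0.717, 0.583 and 0.52.

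**Figure D2:**
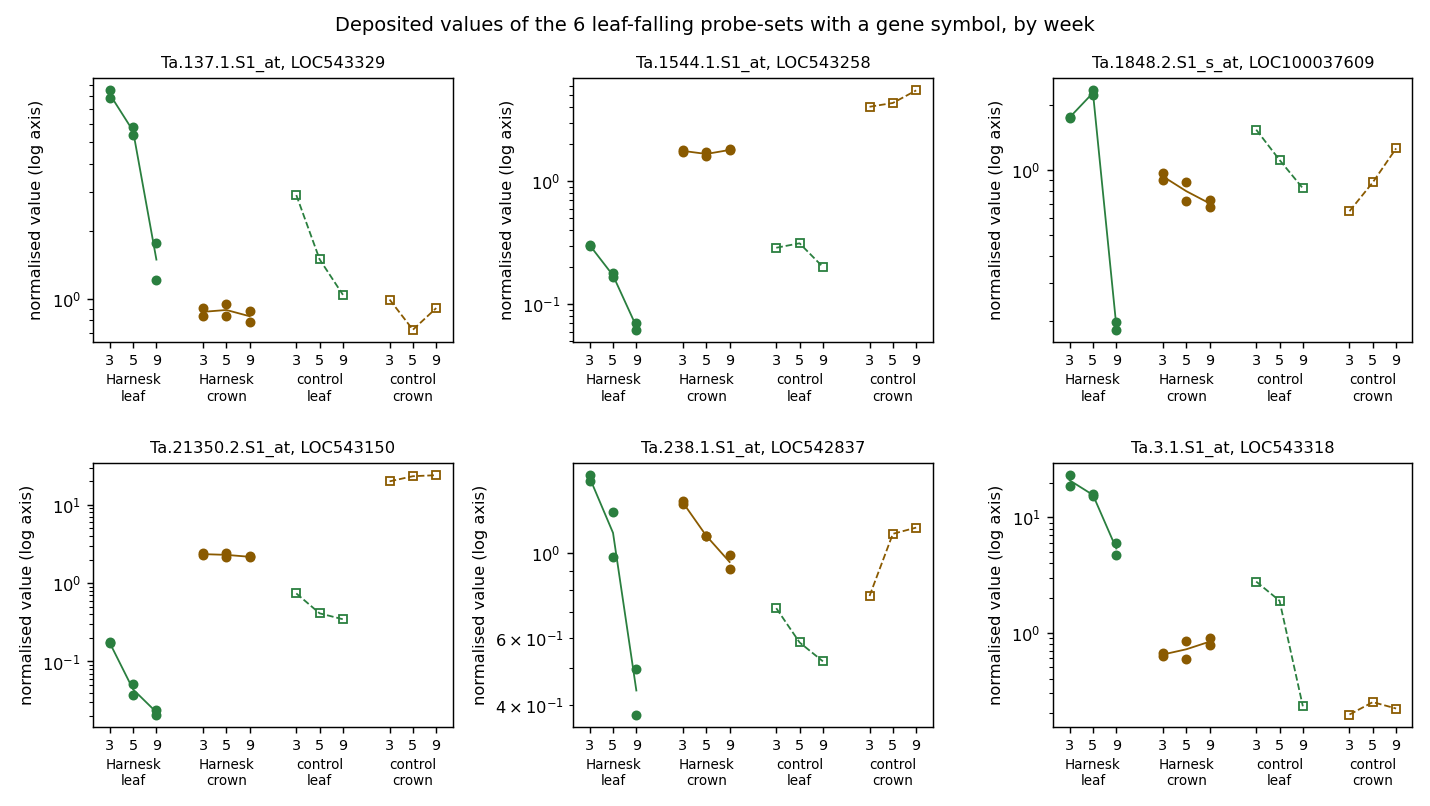
Deposited normalised values (vertical log axis, with its own range in each panel) of the 6 members with a gene symbol at 3, 5 and 9 weeks, with 1 filled point per Harnesk array, 1 open square per control array and lines through the means, leaf in green and crown in brown. In all 6 panels both 9-week Harnesk leaf points lie below both 3-week points, while LOC543258 and LOC543150 have crown values above every leaf value.

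Harnesk leaf and crown were compared at 5 weeks, the sampling that the rule did not use, with limma over the 12 arrays. Of the 120 members, 83 were higher in leaf than in crown at an adjusted p below 0.05 and at least 2-fold, 19 were lower and 18 passed in neither direction. These are 69.2% and 15.8% of the members in the 2 directions, beside 10.7% higher and 17.7% lower over all probe-sets. The median leaf-minus-crown difference was 1.98 on the log2 scale for members and 0.15 for all probe-sets. Among the 64 probe-sets with the same leaf limit that also had a low crown ratio, 22 were higher in leaf (34.4%), 16 lower (25.0%) and 26 passed in neither direction. The rule needs a leaf value at 3 weeks high enough to lose 2/3 of it, and sets no such need for the crown. The part of this need in the shares above was not tested.

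**Figure D3:**
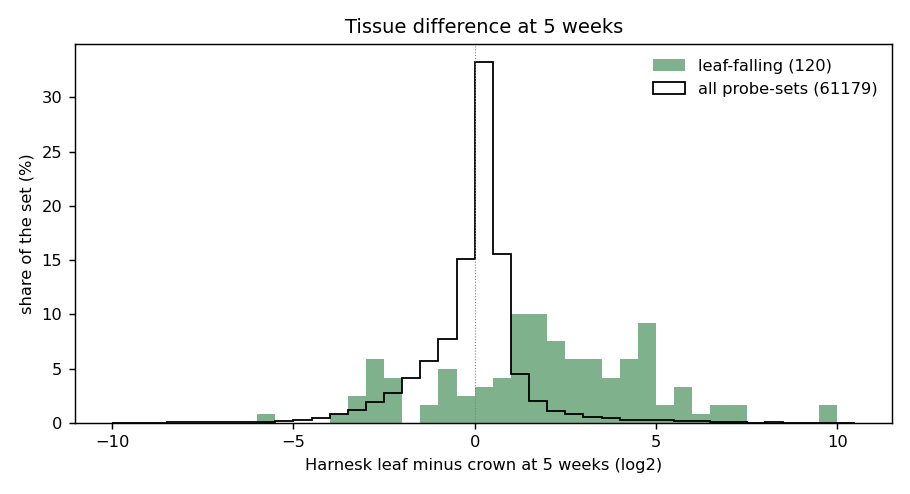
Share of probe-sets in percent (vertical axis) by the Harnesk leaf-minus-crown difference at 5 weeks on the log2 scale (bins of 0.5), for the 120 members (filled) and all 61179 probe-sets (black line). The members' median lies at 1.98 and that of all probe-sets at 0.15, and a smaller group of members lies below 0.

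The control arrays, from other plants, gave a second comparison of the tissues. In a limma fit of tissue with the week as a block over the 6 control arrays, 58 members were higher in leaf than in crown and 21 lower, beside 7.76% and 9.15% of all probe-sets. The median difference was 1.27 for members and 0.00 for all probe-sets. In all, 56 members were higher in leaf in both tests, beside 5.93% of all probe-sets, 18 were lower in both, beside 8.57%, and 0 passed in opposite directions, beside 0.018%.

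The members with the highest leaf level relative to crown at 5 weeks had crown values far under 1. TaAffx.449.1.A1_at had 12.3 and 11.5 in leaf at 3 weeks, 10.4 and 11.3 at 5 weeks, and 3.28 and 3.40 at 9 weeks, against 0.01 to 0.012 in crown, where 0.01 is the lowest value of the table. Its leaf-minus-crown difference at 5 weeks was 9.95 on the log2 scale (SE 0.14, adjusted p = 1.23e-13 by limma), a figure that the table's lowest value limits. Ta.7843.1.S1_a_at followed, with 31.3 and 29.3, 35.3 and 25.8, and 5.58 and 5.70 in leaf, against 0.031 to 0.04 in crown. The companion Ta.7843.3.S1_x_at had nearly the same leaf values, with 28.1 and 30.7 at 3 weeks and 4.51 and 5.09 at 9 weeks, but 0.391 to 0.505 in crown. For this cluster the leaf level was held until 5 weeks and the crown level depended on the probe-set.

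At 3 weeks 83 members had a leaf mean at least 4-fold above crown, and at 9 weeks 38 did. The leaf mean was above the crown mean for 101 members at 3 weeks and for 79 at 9 weeks, and 22 crossed from leaf-high to crown-high between these samplings. These are descriptions, since the rule fixes a leaf decrease.

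The members that were lower in leaf than in crown at 5 weeks included both LOC543258 and LOC543150. Beside LOC543150, the lowest leaf level relative to crown was that of Ta.7378.6.S1_at, with 0.257 and 0.315 in leaf at 3 weeks, 0.273 and 0.259 at 5 weeks, and 0.071 and 0.051 at 9 weeks, against 2.63 to 4.17 in crown. Its leaf-minus-crown difference at 5 weeks was -3.85 (SE 0.17, adjusted p = 6.43e-10 by limma). Ta.7378.6.S1_at has no symbol but shares its cluster number with crown markers annotated as the histone H2B gene wcH2B-8. From 3 to 9 weeks those markers changed in leaf by -0.50 to 0.27 on the log2 scale, against -2.23 for the member. Of the 19, the 3 probe-sets of cluster Ta.21508 were above the crown at 3 weeks and had dropped below it by 5 weeks.

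Cluster Ta.10329 gave 4 crown-high members among its 39 probe-sets on the array. Ta.10329.12.S1_x_at had 0.976 and 1.02 in leaf at 3 weeks, 0.877 and 0.66 at 5 weeks, and 0.307 and 0.299 at 9 weeks, against 4.32 to 4.79 in crown. The 4 members had leaf ratios of 0.288 to 0.307, and those of the other 35 probe-sets ran from 0.323 to 0.975, none of which met the leaf limit. The members are thus the low end of a large group of probe-sets with 1 cluster number. On the control leaf arrays the 4 members had 9-week values 1.94 to 3.04 times the 3-week values, whereas at 5 weeks the ratios were 0.918 to 1.13.

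The path from 3 to 9 weeks differed among members. At 5 weeks both leaf arrays of 93 members lay below both 3-week arrays, beside 24.0% of all probe-sets, those of 10 lay above, beside 19.0%, and those of 17 overlapped, beside 56.9%. From 5 to 9 weeks 102 members were lower without overlap, beside 30.8%, 10 were higher, beside 27.0%, and 8 overlapped, beside 42.2%. The means stepped down at both samplings for 92 members. The 5-week mean was at most 1/2 of the 3-week mean for 45 members, beside 1.25% of all probe-sets, and the 9-week mean was at most 1/2 of the 5-week mean for 84, beside 1.46%. On the log2 scale a median of 32.0% of the decrease had been reached at 5 weeks, and 39 members had reached more than 1/2 of it. All these figures share the arrays that chose the members.

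A first path was a large early loss with partial recovery. Ta.26051.1.A1_at had the lowest ratio of the 5-week to the 3-week leaf mean in the set, with 66.0 and 64.6 at 3 weeks, 1.23 and 1.45 at 5 weeks, and 10.9 and 11.1 at 9 weeks. That ratio was 0.0205, and the 9-week mean was 8.23 times the 5-week mean. The crown moved with it in a small range, with 0.713 and 0.986, 0.394 and 0.39, and 1.35 and 1.2. The control leaf arrays had 0.931, 0.75 and 0.551, and the 3-week control crown array had 0.6. Relative to crown, the control leaf thus began without the high level of Harnesk leaf, so these arrays cannot show whether such a dip occurs.

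Cluster Ta.21508 behaved likewise. Ta.21508.3.S1_at had 8.95 and 6.23 in leaf at 3 weeks, 0.421 and 0.568 at 5 weeks, and 1.36 and 1.23 at 9 weeks, and Ta.21508.1.A1_a_at had 4.03 and 3.13, 0.105 and 0.141, and 0.576 and 0.606. The crown values of both lay between 0.817 and 1.56, and the control leaf ratios were 1.13 and 1.23 at 5 weeks and 0.968 and 1.19 at 9 weeks. At 3 weeks their control leaf values, 0.788 and 0.349, were already below the control crown values, 0.843 and 0.883. Another such probe-set was Ta.21285.1.A1_s_at, with 20.4 and 21.6, 1.53 and 2.31, and 6.54 and 6.72 in leaf. Together with Ta.26051.1.A1_at these were the 4 members whose 9-week leaf mean was at least 2-fold the 5-week mean.

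A second path was a peak at 5 weeks before the loss. The 3 probe-sets of cluster Ta.1345 had leaf values of 0.098 to 0.123 at 3 weeks, 0.528 to 0.996 at 5 weeks and 0.01 to 0.031 at 9 weeks, so the 5-week means were 6.55 to 7.04 times the 3-week means. Their crown values ran from 1.11 to 1.65 over all arrays. The leaf of these crown-high transcripts thus came near the crown level at 5 weeks only, and the 5-week replicates differed, with 0.528 to 0.561 on the first array and 0.891 to 0.996 on the second. One 9-week leaf value of Ta.1345.1.S1_x_at stood at the lowest value of the table, so its 9-week mean is an upper bound. On the control leaf arrays no peak was seen, with 0.116 to 0.124, 0.052 to 0.061 and 0.029 to 0.043 at 3, 5 and 9 weeks.

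Ta.25062.1.S1_at had the lowest 9-week to 3-week ratio of the set, with 1.27 and 1.22 in leaf at 3 weeks, 4.54 and 5.09 at 5 weeks, and 0.043 and 0.039 at 9 weeks. The 5-week mean was 3.87 times the 3-week mean and the 9-week mean was 0.0329 of it. Its crown also peaked at 5 weeks, with 0.337 and 0.395, 1.01 and 0.932, and 0.371 and 0.361. Ta.3928.1.S1_a_at peaked in leaf alone, with 4.75 and 4.39, 15.4 and 17.5, and 0.885 and 0.93, against 0.787 to 0.916 in crown. On the control leaf arrays Ta.25062.1.S1_at had 2.38, 2.04 and 3.64 and Ta.3928.1.S1_a_at had 5.63, 2.24 and 1.54, so neither peaked at 5 weeks there. These 5 probe-sets were the members with a 5-week leaf mean at least 2-fold the 3-week mean.

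The last path was a steady loss. Ta.438.1.S1_a_at had 25.8 and 26.5 in leaf at 3 weeks, 9.51 and 11.3 at 5 weeks, and 0.892 and 1.06 at 9 weeks, with 0.361 to 0.542 in crown. Ta.438.2.S1_x_at had 21.0 and 17.2, 5.32 and 6.91, and 0.916 and 0.864, with 0.312 to 0.521 in crown. The companion Ta.438.1.S1_x_at had 11.4 and 9.98, 3.43 and 3.86, and 1.29 and 1.02, with 0.705 to 0.878 in crown. The 9-week means were 0.0373, 0.0466 and 0.108 of the 3-week means. Each leaf array was above every crown array of its probe-set. The other probe-set of the cluster had a leaf ratio of 1.33 and was no member. Ta.26907.1.S1_at had a similar course, with 44.5 and 43.6, 17.4 and 15.6, and 1.90 and 1.90 in leaf, against 0.325 to 0.432 in crown.

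Cluster Ta.10098 gave 4 members that also stepped down at each sampling. Ta.10098.2.S1_a_at had 6.34 and 4.02 in leaf at 3 weeks, 1.80 and 1.46 at 5 weeks, and 0.741 and 0.58 at 9 weeks, and Ta.10098.1.S1_x_at had 2.94 and 2.99, 1.65 and 1.60, and 0.973 and 0.881. The crown values of the 4 probe-sets lay between 0.608 and 1.14. By 9 weeks the leaf of these transcripts overlapped the crown range. On the control leaf arrays the ratios ran from 0.662 to 0.813 at 5 weeks and from 0.44 to 0.883 at 9 weeks.

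**Figure D4:**
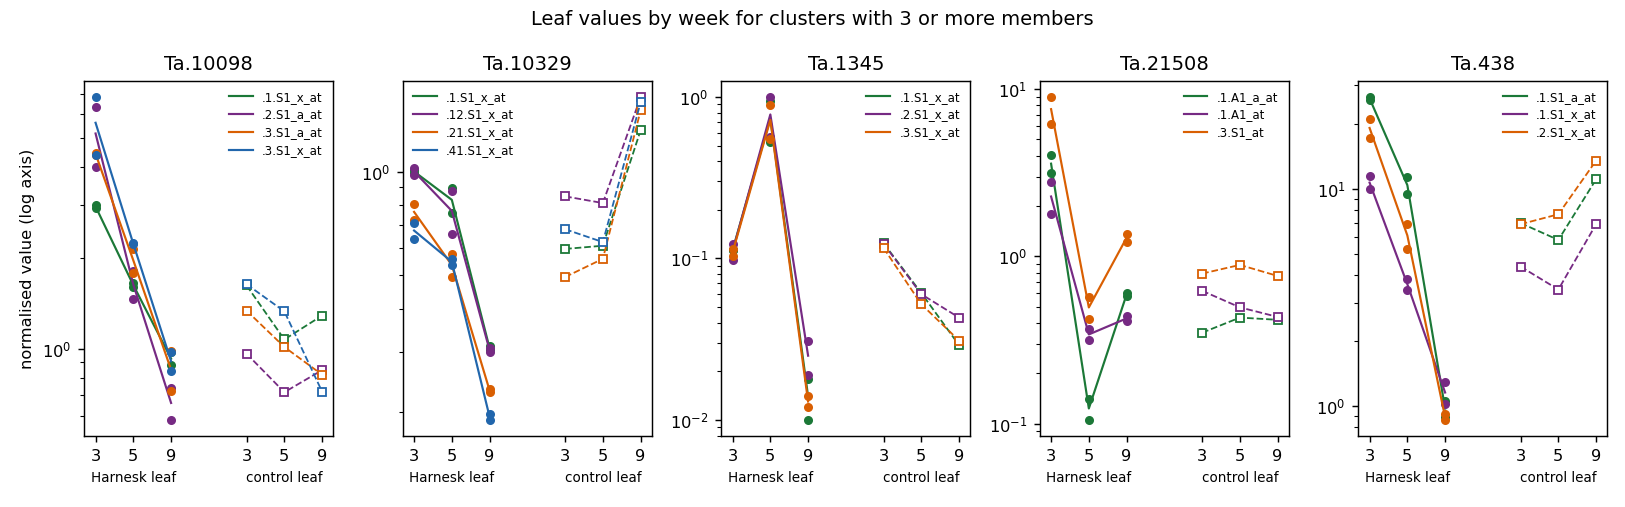
Normalised leaf values (vertical log axis, with its own range in each panel) at 3, 5 and 9 weeks for the members of the 5 clusters with at least 3 members, with filled points for single Harnesk arrays, lines through their means, and open squares with dashed lines for the control arrays. Ta.438 and Ta.10098 step down, Ta.1345 peaks at 5 weeks, Ta.21508 is lowest at 5 weeks, and the control values of Ta.438 and Ta.10329 are highest at 9 weeks.

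A few members changed in crown in the opposite direction to leaf. Cluster Ta.28728 has 5 probe-sets on the array, of which 2 were members. Of the others, 1 met the leaf limit but had a crown ratio under 0.67, so the cluster did not share 1 course in crown. In crown the 2 members had 0.858 to 0.915 at 3 weeks, 1.39 to 1.49 at 5 weeks and 2.26 to 2.36 at 9 weeks. Their leaf values were 1.14 to 1.19, 1.01 to 1.31 and 0.328 to 0.362. With crown ratios of 2.54 for Ta.28728.1.S1_at and 2.65 for Ta.28728.1.S1_x_at, both passed as higher in crown, as did Ta.20878.1.S1_x_at, with 0.276 and 0.221 in crown at 3 weeks and 0.497 and 0.567 at 9 weeks. On the control crown arrays the Ta.28728 members had 0.489 to 0.499, 0.791 to 0.833 and 0.67 to 0.684. On the control leaf arrays their ratios were 0.496 and 0.526 at 5 weeks and 0.134 and 0.135 at 9 weeks.

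The control arrays show what happened in Solstice leaf as plants aged and day-length and light declined without cooling. The 9-week value was at most 1/2 of the 3-week value for 43 members, beside 3.36% of all probe-sets, and at most 1/3 for 23, beside 0.747%. After quantile normalisation the first of these counts was 57 members, beside 9.10% of all probe-sets. At 5 weeks 28 members were at 1/2 or less, beside 1.86%. The median control leaf ratio of the members was 0.765 at 5 weeks and 0.678 at 9 weeks, beside 0.993 and 0.932 over all probe-sets. Among the 6551 probe-sets that were leaf-high at 5 weeks in Harnesk, the share at 1/2 or less was 14.2% at 9 weeks and 9.34% at 5 weeks, and 29 of the 83 leaf-high members were at 1/2 or less at 9 weeks. Among the 64 probe-sets that also had a low crown ratio, 24 were at 1/2 or less at 9 weeks and 16 at 5 weeks, shares of 37.5% and 25.0% beside 35.8% and 23.3% of the members. The median level of the members on the control leaf arrays was 1.83, 1.26 and 1.04 at 3, 5 and 9 weeks, beside 6.21 and 6.10 in Harnesk leaf at 3 weeks. Members were chosen by their Harnesk values, and the 2 groups were not shown to be on one scale for every probe-set, so these levels cannot be compared directly. With 1 array a week, no test was made.

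The members with the lowest ratios of the 9-week to the 3-week control leaf value were Ta.7883.1.S1_x_at and Ta.28133.1.A1_s_at. Ta.7883.1.S1_x_at had 3.12, 0.564 and 0.068 on the control leaf arrays at 3, 5 and 9 weeks, and Ta.28133.1.A1_s_at had 6.88, 1.43 and 0.51. The 9-week ratios were 0.0218 and 0.0741, and the 5-week ratios 0.181 and 0.208, so that the lower level was also seen on the array that did not stand apart. In Harnesk leaf Ta.7883.1.S1_x_at had 6.87 and 5.75, 2.99 and 5.01, and 1.04 and 0.859, and Ta.28133.1.A1_s_at had 23.7 and 24.4, 6.87 and 16.7, and 3.99 and 3.83. The 9-week ratio was lower on the control leaf arrays than in Harnesk leaf for 13 members, of which 12 also had the lower 5-week ratio.

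Other members had higher control leaf values at 9 weeks. The ratio was at least 2 for 11 members, beside 11.2% of all probe-sets, and above 1 for 33, beside 42.3%. At 5 weeks it was at least 2 for 2 members, beside 0.333%, and above 1 for 25, beside 48.4%. The highest were those of cluster TaAffx.6654, with 3.60, 5.20 and 20.0 on the control leaf arrays for TaAffx.6654.1.S1_x_at and 4.75, 7.73 and 19.1 for TaAffx.6654.1.S1_at, against Harnesk leaf values of 5.48 and 4.70, 2.39 and 1.49, and 1.31 and 1.24 for TaAffx.6654.1.S1_x_at. The control crown values of TaAffx.6654.1.S1_x_at were 0.69, 0.93 and 3.24, so its 9-week control value was the highest in both tissues. TaAffx.49039.1.A1_at had 5.72, 5.27 and 17.7 on the control leaf arrays. The steady losers of cluster Ta.438 had 6.97, 5.83 and 11.1 for Ta.438.1.S1_a_at and 6.89, 7.65 and 13.5 for Ta.438.2.S1_x_at. Apart from TaAffx.6654 and Ta.438.2.S1_x_at, these probe-sets were not above their 3-week value on the 5-week control array.

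**Figure D5:**
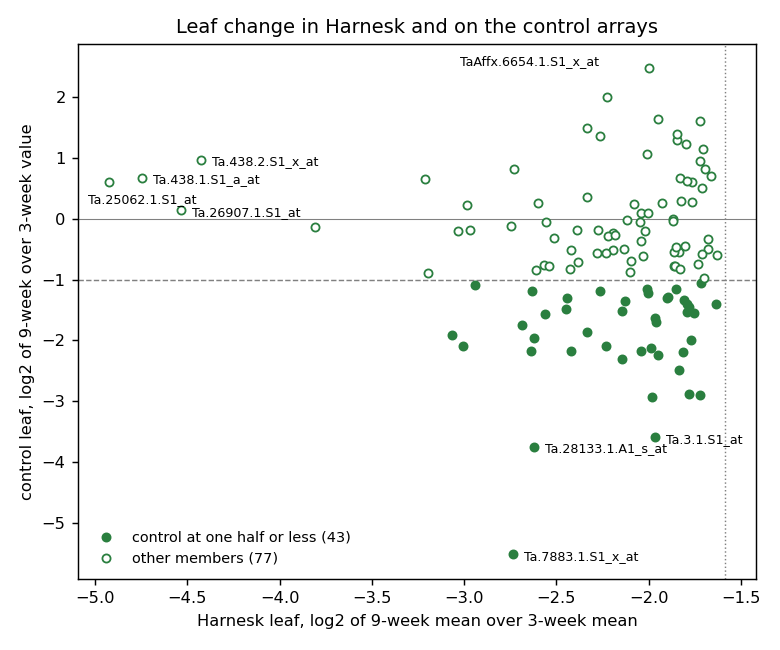
Log2 of the 9-week over the 3-week value on the control leaf arrays (vertical axis, 1 array a week) against that in Harnesk leaf (horizontal axis, means of 2 arrays a week) for the 120 members, with filled points for the 43 at 1/2 or less on the control arrays. The dashed line marks 1/2 and the dotted line 1/3, and the points spread from far below to well above 0 on the control axis at similar Harnesk values.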

How the data were processed

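RNA from leaf and crown was hybridised to Affymetrix wheat arrays. The deposited values are ratios: the authors normalised each chip by RMA (version not given in the sources used here) and divided each probe-set by its median in GeneSpring, over which arrays is not stated. The genome build is not given in the sources used here. The 111 control probe-sets were removed, and log2 values were used without further normalisation, pseudocount or filter. Of 42 arrays, 18 were used (12 Harnesk, 6 control); the other 24, of Paragon and vernalised Solstice, were not used because their values did not follow the probe-set column. Arrays have no depth; their number limits the precision.

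Leaf was compared with crown with limma 3.58.1 (R 4.3.3) and Benjamini-Hochberg adjustment over 61179 probe-sets. Calls needed an adjusted p below 0.05 and 2-fold. Detection rates in simulated data with known changes were 82% at 2.5-fold and 99% at 4-fold for the 5-week test. For the control test they were 0% at 4-fold and 48% at 8-fold. On the real control arrays, differences under 4-fold did pass, such as 1.09 on the log2 scale for Ta.4269.3.S1_at (adjusted p = 0.0418 by limma). The simulated rates therefore do not give the power of the control test on these arrays. Gene symbols came from the platform annotation (1273 probe-sets with 1 symbol, 0 with several, 59906 without) and synonyms from RefSeq (assembly IWGSC CS RefSeq v2.1, 1272 matched).

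The members and gene lists were chosen with earlier results of these data known. Members were named if they had a symbol, had the largest leaf decrease, or lay at the limits. Members of clusters with at least 3 members and those at the ends of the 5-week, control, crown and tissue ratios, with further examples of each course, were named after their values were seen. Alternatives were other scalings, filters, limits and tests, and leaving out arrays.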

Additional observations from a re-analysis of the deposited data

Results flagged for a closer look

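Of the 45 members named for their values, annotation or cluster, 14 were lower in both 9-week Harnesk leaf arrays and higher on the 9-week than on the 3-week control leaf array. Some of them were named because their control ratio was among the highest. Over the whole set 33 of 120 members were higher on that array, and 42.3% of all probe-sets. The difference was not tested, since each control week has 1 array and the 9-week control leaf array stood apart. On the 5-week control leaf array 7 of the 14 were above their 3-week value, with ratios of 0.543 to 1.71 over the 14. The control leaf ratios of 9 to 3 weeks were 1.53 for Ta.25062.1.S1_at, 1.19 for Ta.21508.1.A1_a_at, 1.62 for Ta.21285.1.A1_s_at and 1.10 for Ta.26907.1.S1_at. In cluster Ta.438 they were 1.59 for Ta.438.1.S1_a_at, 1.57 for Ta.438.1.S1_x_at and 1.96 for Ta.438.2.S1_x_at. In cluster Ta.10329 they were 2.21 for Ta.10329.1.S1_x_at, 1.94 for Ta.10329.12.S1_x_at, 3.04 for Ta.10329.21.S1_x_at and 2.34 for Ta.10329.41.S1_x_at. The highest were 5.56 for TaAffx.6654.1.S1_x_at, 4.03 for TaAffx.6654.1.S1_at and 3.10 for TaAffx.49039.1.A1_at.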

How the results depend on the processing

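The number of members depended most on the limits: a ratio of leaf means gave 201 and a crown ratio of 0.8 to 1.2 gave 75, against 120. Quantile normalisation gave 131, of which 83 were members, and centring on array medians 84, all of them members. Leaving out each 3- or 9-week Harnesk array gave 115 to 175. On the control leaf arrays, 5 weeks in place of 9 weeks gave 28 members at 1/2 or less, against 43, and 5 at 1/3 or less, against 23, and quantile normalisation gave 41 at 1/3 or less. Leaving out each array gave 42 to 53 members at 1/2 or less at 5 weeks in Harnesk leaf, 80 to 83 higher and 19 to 23 lower in leaf than crown at 5 weeks. The alternatives to the tissue tests kept each count within 1.5 times its main value. With the replicate number as a block, 83 were higher and 19 lower, as without it. The numbers did not pair the arrays, since 0 of 15 pairs of conditions had a correlation of deviations over 0.1. The methods' t-test gave 76 higher and 18 lower unadjusted, and 63 and 14 after Benjamini-Hochberg. The control tissue counts were 53 to 63 higher and 17 to 21 lower. Ratios carry no signal over background, so whether the lowest values were measured above it is not known.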
